A study of Mus musculus with 12 samples.

Results

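The net state of macrophages that received tunicamycin and then lipopolysaccharide (LPS) was described by setting the 3 libraries treated with both agents against the 3 untreated control libraries, which are 6 of the 12 RNA sequencing libraries of the series. The cells were wild-type (WT) mouse bone-marrow-derived macrophages, made by growing marrow cells for 7 days in medium with M-CSF and 10% serum. Control cells received neither agent. Cells of the combination group received tunicamycin at 5 ug/ml, starting 3 h before LPS, and then LPS at 1 ng/ml for 3 h. The other 6 libraries served to find genes changed only by the combination. Of these, 3 had LPS alone at 1 ng/ml for 3 h and 3 had tunicamycin alone at 5 ug/ml. The exposure time of the tunicamycin-only cells, and the strain, age and number of mice, are not given in the sources used here. Nothing says that the libraries of a group came from separate cultures or animals, so the p-values measure only the spread between these libraries. Per its title, the study asked how stress of the endoplasmic reticulum (ER) alters inflammation. All values are FPKM, fragments scaled to transcript length and to the number of mapped fragments, and of 24346 genes in the table the 10311 with at least 1 FPKM in at least 3 libraries were tested.

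Tunicamycin is an antibiotic that blocks the first step of N-linked glycosylation, so that unfolded glycoproteins collect in the ER and the unfolded protein response begins. That response raises ER chaperones and degradation factors through XBP1 and ATF6, and amino acid and redox genes through the kinase PERK, ATF4 and CHOP. LPS is a bacterial outer membrane component that macrophages sense through CD14 and TLR4, which lead to NF-kB, AP-1 and interferon signalling and to the production of cytokines and chemokines.

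Between control and combination 4211 genes (40.8%) passed at a limma adjusted p below 0.05, 2130 higher (20.7%) and 2081 lower (20.2%). Of these, 893 were at least 2-fold higher and 700 at least 2-fold lower, and 88 and 11 passed 10-fold. Fold changes are differences of group means on the log2(FPKM + 1) scale, which understates the change of genes near or under 1 FPKM. The control and combination libraries did not overlap in 4940 genes (47.9%). The median gene was at log2 0, with quartiles of -0.40 and 0.42. Across genes, Pearson's r was 0.9726 to 0.9765 within the combination group and 0.8887 to 0.9013 between it and the controls. Control replicate 2 lay apart from the other controls, and the 3 combination libraries were spread out (20.52, 6.561 and -23.28), on later principal components. List counts that moved by over 1.5 times without a library are also given without it.

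The genes that rose most were cytokines, chemokines and other early genes of the macrophage response to LPS. Tnf, the gene of the inflammatory cytokine TNF (GRCm38/mm10, chromosome 17, 35199381 to 35202007, minus strand), was at 1.76, 3.45 and 3.61 FPKM in the control libraries and at 1177, 977 and 988 FPKM in the combination libraries. Irg1, whose enzyme makes itaconate, was at 2.37, 1.43 and 3.33 FPKM in controls and at 858, 986 and 842 FPKM with both agents. Every combination library was far above every control library for both genes. By limma each rose by log2 8.09 (272-fold), with a standard error (SE) of 0.16 for Tnf and 0.18 for Irg1, and adjusted p of 6.22e-16 and 1.82e-15. The neutrophil attractants Cxcl1 (log2 8.03 ± 0.26 SE) and Cxcl2 (log2 7.99 ± 0.18 SE), Cxcl10, which attracts T cells (log2 7.96 ± 0.23 SE), Il1b (log2 7.54 ± 0.15 SE) and Il1a (log2 7.31 ± 0.18 SE) followed. Nfkbiz, a nuclear partner of NF-kB needed for secondary response genes, rose by log2 7.30 and Cd69, an early activation antigen, by log2 6.83. Ccl5, a chemokine gene also driven by interferon factors, was the least even of the 10 largest rises, at 1020, 108 and 259 FPKM in the combination libraries against 0.647, 4.26 and 2.65 FPKM in controls. Set against LPS alone, Irg1, Cxcl10, Il1b and Cd69 were lower with both (log2 -0.97, -0.98, -1.48 and -0.93). Tnf, Cxcl2 and Nfkbiz were higher (log2 0.49, 0.97 and 0.83), and Cxcl1, Il1a and Ccl5 did not pass.

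Cytokine genes rose as a group: 16 of the 19 tested rose (84.2%, beside 20.7% of all genes), none fell and 3 did not pass. The median of the 19 was log2 3.90 beside 0 over all genes tested. Il6, which drives the acute phase, was at 0.12, 0 and 0.123 FPKM in controls and at 80.4, 60.1 and 55.5 FPKM with both agents (log2 5.92 ± 0.22 SE, limma adjusted p = 1.85e-12). The M-CSF gene Csf1 (chromosome 3, 107741048 to 107760469, minus strand), was at 4.68, 3.70 and 6.81 FPKM in controls and at 236, 277 and 236 FPKM with both. The 3 combination libraries agreed closely for Csf1 and stood 42.2-fold above the controls (log2 5.40 ± 0.17 SE). Beside it, LPS alone gave 34.1, 46.8 and 47.5 FPKM and tunicamycin alone 34.9, 37.7 and 35.6 FPKM. Il12b, the shared subunit of interleukins 12 and 23, varied more between the combination libraries, at 126, 21.5 and 41.2 FPKM (log2 5.56 ± 0.48 SE). Il27, a subunit of interleukin 27, rose by log2 6.00 to 91.5, 43.5 and 90.8 FPKM. Csf2, the gene of GM-CSF, was listed at 0 in the controls and had a mean of 8.36 FPKM with both. The gene of interferon beta, Ifnb1, was listed at 0 in every control and in 1 combination library, at 3.73 and 4.76 FPKM in the other two. Its call (limma adjusted p = 0.0115) was lost without combination replicate 1 (0.0575) or replicate 2 (0.0676). Il10, an anti-inflammatory cytokine gene, did not reach the level needed for a test and was listed at 0 in all 3 combination libraries, beside 0.815, 0.877 and 1.84 FPKM with LPS alone. The 3 cytokine genes that were tested and did not pass were Tgfb1, Il18 and Il12a.

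Chemokine genes gave 13 rises (76.5%) and 2 falls (11.8%) of 17 tested, beside 20.7% and 20.2% of all genes. Their median was log2 2.76. Ccl4, an attractant of monocytes and T cells, was at 279, 356 and 316 FPKM in controls and at 6901, 6308 and 6833 FPKM with both agents, and became the 9th most abundant gene of the combination group from rank 282 in the controls. The list also held falls: Ccl12, a monocyte attractant, fell by 2.2 on the log2 scale and Ccl6 by 0.58. The 2 falls were 1 without control replicate 2 or combination replicate 1. Among the other effectors of the LPS response and the feedback genes of NF-kB, 35 of 36 rose and none fell, with a median of log2 2.79. Ptgs2, the inducible cyclooxygenase, stood at 142, 162 and 157 FPKM in the combination libraries against 1.16, 0.0508 and 1.16 FPKM in controls (log2 6.51 ± 0.25 SE). Nos2, the inducible nitric oxide synthase, was listed at 0 in all 3 controls and at 45.5, 23.8 and 38.9 FPKM with both. Inhibitors rose beside the effectors, among them Nfkbia, the NF-kB inhibitor (log2 3.83), Tnfaip3, the ubiquitin editor A20 (log2 3.90), and Socs3, which limits cytokine receptors (log2 4.12). Dusp1, a phosphatase of stress kinases, was the member that did not pass, at mean levels of 54.1 FPKM in controls and 56.8 FPKM with both.

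Interferon response genes rose in 34 of 42 tested members, none fell, and the median was log2 1.78. Ifit1, an antiviral RNA-binding protein gene, was at 0.525, 0.658 and 2.37 FPKM in controls and at 164, 201 and 196 FPKM with both agents (log2 6.52 ± 0.30 SE). Rsad2, which encodes viperin, rose by log2 6.15 and Isg15, a ubiquitin-like modifier gene, by log2 4.66. The sensing arm of the LPS response had 11 rises (44%) and 5 falls (20%) of 25, beside 20.7% and 20.2% of all genes. Cd14, the LPS co-receptor, rose from 251, 312 and 302 FPKM to 1188, 1095 and 1267 FPKM. Ticam2, the adaptor TRAM, rose by log2 3.29 and Map3k8, a kinase upstream of ERK, by log2 2.26. Tlr4 itself was at 22, 23.6 and 20.3 FPKM in controls and at 6.98, 12.3 and 7.35 FPKM with both (log2 -1.26 ± 0.19 SE, limma adjusted p = 5.29e-05). Irak4 and Irak1, kinases that act just below the receptor, fell by 0.63 and 0.42 on the log2 scale. The 5 falls of this list were 3 without control replicate 1, control replicate 3 or combination replicate 3.

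**Figure D1:**
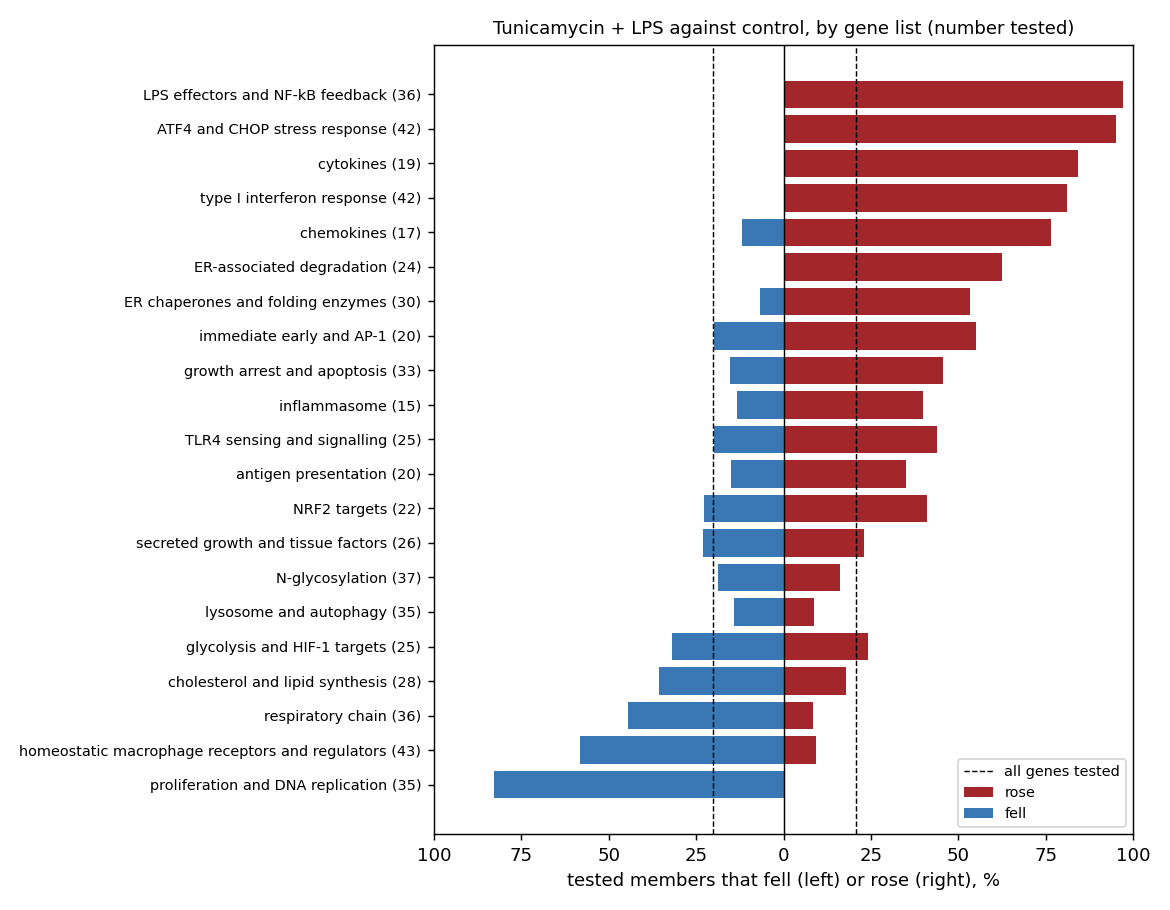
Share of the tested members of each gene list that fell (blue, drawn to the left) or rose (red, drawn to the right) with tunicamycin plus LPS against control, in percent; the number tested stands beside each name. Dashed lines mark the shares over all 10311 genes, 20.2% lower and 20.7% higher; LPS effectors and ATF4/CHOP genes lie at the upper end and proliferation genes at the lower end.

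Genes of the unfolded protein response rose beside the inflammatory genes. Hspa5, which encodes BiP, a chaperone of the ER lumen (chromosome 2, 34771970 to 34777547, plus strand), was at 765, 912 and 845 FPKM in controls and at 14851, 11578 and 14163 FPKM with both agents. No library overlapped, and limma gave log2 4.00 ± 0.14 SE (16.0-fold, adjusted p = 6.23e-13). Hspa5 moved from the 80th to the 4th most abundant gene. Of 30 tested chaperones and folding enzymes 16 rose (53.3%), 2 fell (6.67%) and 12 did not pass, with a median of log2 0.54. Over all genes 20.7% were higher and 20.2% lower. The rises included the co-chaperone gene Dnajb9 (log2 3.62), Manf, a secreted ER stress factor (log2 2.91), and Creld2 (log2 2.53). Erp29 and Cnpy3, the latter a chaperone of Toll-like receptors, fell by 0.82 and 0.79 on the log2 scale. The 2 falls were 4 without control replicate 1 or combination replicate 1. The genes of this list together took 0.744% ± 0.0186 (SD, n = 3) of summed FPKM in controls and 3.13% ± 0.275 (SD, n = 3) with both.

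ER-associated degradation is the pathway that returns misfolded proteins to the cytosol. It had 15 rises (62.5%) and no falls among 24 tested genes, beside 20.7% and 20.2% of all genes. There was 1 fall without combination replicate 3 and with quantile normalization. Herpud1, which gathers the degradation complex at the ER membrane, was at 19.4, 13 and 17.8 FPKM in controls and at 1378, 1412 and 1438 FPKM with both (80.4-fold, log2 6.33 ± 0.12 SE). Its combination libraries lay within a narrow band and were also above the 3 libraries with tunicamycin alone, which had 915, 994 and 1031 FPKM. The ubiquitin ligase gene Syvn1 rose by log2 2.76 and its partner Sel1l by log2 2.26. Derl3, a membrane component of the same pathway, was listed at 0 in every control and at 12.3, 3.53 and 3.92 FPKM with both.

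In the ATF4 and CHOP list 40 of 42 tested genes rose (95.2%, beside 20.7% of all genes), none fell, and the median was log2 1.79. Ppp1r15a, which encodes the phosphatase subunit GADD34 that reopens translation, was at 16.4, 18.2 and 15.7 FPKM in controls and at 652, 574 and 599 FPKM with both (34.3-fold, log2 5.10 ± 0.09 SE). Ddit3, the gene of CHOP, was at 42.0, 52.7 and 42.0 FPKM and then at 1322, 861 and 1096 FPKM (log2 4.54 ± 0.15 SE). Trib3, a pseudokinase gene downstream of CHOP, rose by log2 5.69 and Nupr1, a stress-induced chromatin protein gene, by log2 4.98. Atf4 rose by log2 2.87, Asns, asparagine synthetase, by log2 3.47, and Chac1, which breaks down glutathione, by log2 4.50. Atf3 rose by log2 0.73, from 126, 129 and 147 FPKM to 238, 215 and 215 FPKM. Set against tunicamycin alone, whose exposure time is unknown, Trib3 and Ddit3 were lower with both (log2 -0.72 and -0.57). Ppp1r15a and Nupr1 were higher (log2 1.14 and 0.71), and Atf4 and Atf3 did not pass. Psat1 and Psph, both enzymes of serine synthesis, did not pass. As a share of summed FPKM the list held 0.225% ± 0.00347 (SD, n = 3) in controls and 1.12% ± 0.0662 (SD, n = 3) with both.

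The genes of N-glycosylation, which tunicamycin blocks, rose and fell in shares near those of all genes. Of 37 N-glycosylation genes 6 rose (16.2%), 7 fell (18.9%) and 24 did not pass, beside 20.7% higher and 20.2% lower of all genes. Their median was log2 -0.06. Dpagt1, the enzyme that tunicamycin inhibits, was at means of 59.8 FPKM in controls and 54.9 FPKM with both, and did not pass. The 4 largest rises were successive enzymes of UDP-GlcNAc synthesis: Gfpt1 (log2 2.18), Uap1 (log2 1.54), Pgm3 (log2 1.33) and Gnpnat1 (log2 1.10). Gfpt1, the entry enzyme, was at 2.06, 2.50 and 2.00 FPKM in controls and at 16.4, 13.7 and 10.7 FPKM with both. Dad1, a subunit of the oligosaccharyltransferase, fell by 1.26 on the log2 scale, from 304, 358 and 330 FPKM to 166, 110 and 143 FPKM.

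**Figure D2:**
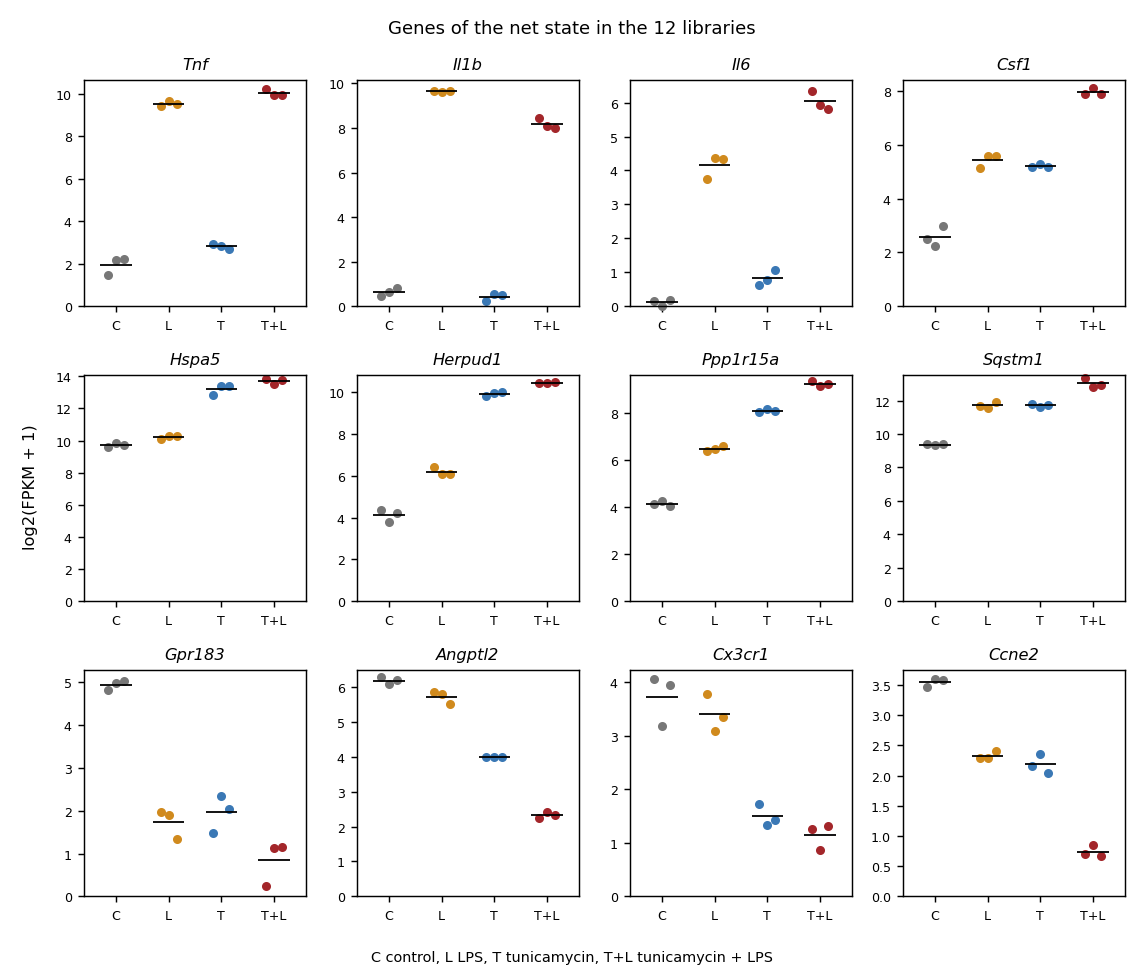
Level of 12 genes in each of the 12 libraries, as log2(FPKM + 1), in control (grey), LPS (orange), tunicamycin (blue) and tunicamycin plus LPS (red); bars are group means. The top row holds cytokine genes, the middle row stress genes and the bottom row genes that fell; in the red libraries Csf1, Ppp1r15a and Sqstm1 lie above, and Ccne2 below, all other groups.

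Sqstm1, the autophagy receptor p62 and an NRF2 target, was at 664, 650 and 668 FPKM in controls and at 10212, 7172 and 7910 FPKM with both agents (12.6-fold, log2 3.66 ± 0.11 SE). It rose to rank 6 in abundance from rank 100. The NRF2 list, genes of the oxidative stress response, had 9 rises (40.9%) and 5 falls (22.7%) of 22, beside 20.7% and 20.2% of all genes. Slc7a11, the cystine transporter (log2 4.01), and Txnrd1, thioredoxin reductase (log2 1.55), rose, while Txn1, thioredoxin, and Hmox1, heme oxygenase, fell by 0.98 and 0.88 on the log2 scale. The ferritin genes parted: Ftl1, the most abundant gene in both groups, fell by 0.52 from a mean of 60793 FPKM ± 698 (SD, n = 3) to 42627 FPKM ± 5344 (SD, n = 3). Fth1 rose by log2 0.29 from 29081 FPKM ± 1364 (SD, n = 3) to 35668 FPKM ± 3855 (SD, n = 3). Both ferritin genes have many processed copies in the genome, so their FPKM may be shared with them.

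The largest fall was in Gpr183, a receptor for oxysterols that guides immune cell migration (chromosome 14, 121952551 to 121965195, minus strand), which was at 27.2, 30.7 and 32.0 FPKM in controls and at 0.182, 1.19 and 1.22 FPKM with both. It fell by 4.11 on the log2 scale (SE 0.28, limma adjusted p = 5.57e-09). Angptl2, a secreted angiopoietin-like factor gene, was at 76.5, 66.4 and 72.2 FPKM in controls and at 3.77, 4.37 and 4.04 FPKM with both (log2 -3.84 ± 0.13 SE). For both genes the lowest control library was more than 10-fold above the highest combination library. The 10 largest falls also held Cd300lb, an activating receptor, Id1, an inhibitor of helix-loop-helix factors, S100a8, Rab7b, an endosomal GTPase, Rab3il1 and Cyth4, between log2 -3.88 and -3.38.

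Among 43 tested receptors and regulators of the homeostatic macrophage 25 fell (58.1%), 4 rose (9.3%) and 14 did not pass, with a median of log2 -0.43. Over all genes 20.2% were lower and 20.7% higher. Cx3cr1, the fractalkine receptor, was at 15.7, 8.07 and 14.4 FPKM in controls and at 1.40, 0.823 and 1.5 FPKM with both (log2 -2.58 ± 0.26 SE). The chemokine receptor gene Ccr1 fell by 2.73, Msr1, a scavenger receptor, by 2.17 and C5ar1, the receptor of complement C5a, by 1.91 on the log2 scale. The activating Fc receptor gene Fcgr3 fell by 1.70 while Fcgr2b, the inhibitory one, rose by log2 2.29. Spi1, the gene of the lineage factor PU.1, rose by log2 0.90 and Marco, a scavenger receptor, by log2 1.88. Csf1r, the M-CSF receptor, was at 506, 490 and 509 FPKM in controls and at 512, 644 and 617 FPKM with both, which did not pass (log2 0.23, limma adjusted p = 0.0805). Without combination replicate 1 it did (log2 0.33, limma adjusted p = 0.0146).

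No proliferation gene rose: 29 of 35 fell (82.9%, beside 20.2% of all genes), 6 did not pass, and the median was log2 -1.05. Ccne2, a cyclin of the G1/S transition, was at 10.0, 11.1 and 11.0 FPKM in controls and at 0.618, 0.806 and 0.590 FPKM with both agents (log2 -2.81 ± 0.19 SE, limma adjusted p = 4.63e-09). Either single agent left Ccne2 at 3.11 to 4.32 FPKM, so the combination libraries lay below all others. Ccnd1, cyclin D1, fell by 2.69, Rrm2, a ribonucleotide reductase subunit, by 2.07 and the mitotic kinase gene Plk1 by 1.93 on the log2 scale. All 6 genes of the MCM2-7 replicative helicase fell, between log2 -1.32 (Mcm7) and -0.82 (Mcm5). Mki67 (log2 -0.14) and Top2a (log2 -0.28), both in wide use as markers of cycling cells, did not pass. In bulk RNA, fewer cycling cells and less of these RNAs per cell cannot be told apart.

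Growth arrest and cell death genes had 15 rises (45.5%) and 5 falls (15.2%) of 33, beside 20.7% and 20.2% of all genes. Fas, a death receptor, rose by log2 3.67 (6.22, 5.54 and 6.11 FPKM in controls, 92.6, 80.1 and 90.9 FPKM with both) and Gadd45a, a growth arrest gene, by log2 3.25. Set against tunicamycin alone, whose exposure time is unknown, Fas was higher with both (log2 1.28) and Gadd45a lower (log2 -1.55). Genes that restrain death rose as well, such as Cflar, an inhibitor of caspase 8 (log2 2.69), and Bcl2a1d (log2 3.85). Bcl2a1a, Bcl2a1b and Bcl2a1d are near-identical copies, so how their reads were split between them is uncertain. The initiator caspase genes Casp9 and Casp8 fell by 1.22 and 0.46 on the log2 scale, and Bcl2l1, the survival gene Bcl-xL, by 0.30. In the inflammasome list 6 of 15 rose (40%), 2 fell (13.3%) and 7 did not pass, with a median of log2 0.04. The rises included the sensor Nlrp3 (log2 3.37), Casp4, which binds LPS in the cytosol (log2 2.72), and the pore gene Gsdmd (log2 1.11). Pycard, the adaptor ASC, fell by 0.83 on the log2 scale.

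Metabolic lists leaned lower or split. Cholesterol and lipid genes had 10 falls (35.7%) and 5 rises (17.9%) of 28, beside 20.2% and 20.7% of all genes. Scd2, a fatty acid desaturase, fell by 1.42 and Sqle, an enzyme of sterol synthesis, by 1.31 on the log2 scale. Abca1, which exports cholesterol, rose by log2 1.62. The 5 rises were 3 without combination replicate 2. Respiratory chain genes had 16 falls and 3 rises of 36, with Ndufb3, a complex I subunit, at log2 -1.41 and Cox7a2, a complex IV subunit, at log2 -1.30. Their share of summed FPKM was 1.55% ± 0.0239 (SD, n = 3) in controls and 1.27% ± 0.014 (SD, n = 3) with both. Glycolysis and HIF-1 target genes gave 6 rises (24%) and 8 falls (32%) of 25. The largest rises were Adm, a secreted vasoactive peptide gene (log2 1.30), and Hk2, described below, followed by Hif1a (log2 0.93) and Slc2a1, the glucose transporter GLUT1 (log2 0.83). The largest fall was Pfkfb4, a regulatory enzyme of glycolysis (log2 -1.08). Ldha, lactate dehydrogenase, and the glycolytic enzyme genes Pgam1, Tpi1, Eno1 and Pkm fell by 0.23 to 0.85 on the log2 scale. Without combination replicate 1 the 8 falls were 5.

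Lysosome and autophagy genes had 3 rises (8.57%) and 5 falls (14.3%) of 35, both below the shares over all genes, with Ctsd, cathepsin D, lower by log2 -0.51 and Tfeb, a regulator of lysosome genes, by log2 -1.16. The 3 rises were 5 without control replicate 1 and 6 without combination replicate 2. Antigen presentation genes had 7 rises (35%) and 3 falls (15%) of 20. These were 4 rises without control replicate 1, 3 rises without combination replicate 1, and 1 fall without control replicate 2 or combination replicate 2. Tap1, the peptide transporter, rose by log2 0.64. Immediate early and AP-1 genes gave 11 rises (55%) and 4 falls (20%) of 20, with Junb at log2 2.18 and Batf at log2 2.48 beside Jun at -2.02 and Fos at -1.92. Secreted growth and tissue factors had 6 rises and 6 falls of 26 (23.1% each), close to the shares over all genes. Gdf15, a stress cytokine that is also in the ATF4 and CHOP list, was at 42.0, 32.5 and 32.7 FPKM in controls and at 535, 372 and 542 FPKM with both (log2 3.71 ± 0.15 SE). Mmp14, a membrane metalloproteinase, rose by log2 2.41 and Plau, urokinase, fell by 2.61 on the log2 scale.

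The labelled cell type was checked against markers. Macrophage markers summed to 16700 to 21500 FPKM in controls and to 17000 to 26600 FPKM with both. Lyz2 alone made up most of these sums, at means of 11380.5 FPKM in controls and 14488 FPKM with both. Of the 11 markers 5 fell (Fcgr1, Mertk, Cd68 and Tyrobp among them), 2 rose (Cd14 and Spi1) and 4 did not pass. Neutrophil markers summed to 95.1 to 133 FPKM in controls and to 28.9 to 44.3 FPKM with both, S100a8 and S100a9 falling (1 of them without control replicate 1) and 5 of 7 not passing. Stromal markers summed to 16.7 to 21.2 FPKM in controls and to 28.0 to 63.4 FPKM with both. In that list 3 of 7 rose (5 without combination replicate 2), and Dcn, a collagen-binding proteoglycan, was at 3.92, 4.73 and 19.6 FPKM in the combination libraries. The summed markers of dendritic, T and NK, B, and erythroid and mast cells stayed at or under 8.20 FPKM in both groups. What part these other cells had in the results was not tested.

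A total of 113 genes were changed only by the combination. Such a gene passed against control, against LPS and against tunicamycin in one direction, and passed in neither single-agent comparison with control. The exposure time with tunicamycin alone is unknown. Differences from those cells cannot be told apart from a difference in length of exposure. Of the 113 genes 50 were higher (0.485% of genes tested) and 63 lower (0.611%). A single-agent change that misses the threshold is not an absent one, so sizes were set beside the calls. For 100 of the 113 both single-agent 95% intervals lay within 2-fold of control, and for 71 both single-agent differences had the same sign as the combination. In 49 of the 50 and 55 of the 63 the combination libraries lay outside all 9 other libraries. These counts come from the values that formed the set, so they describe it and do not test it. The median difference from control was log2 0.91 in size, with 21 genes at least 2-fold higher and 22 at least 2-fold lower. Leaving out tunicamycin replicate 2 left 67 such genes (31 higher, 36 lower) and leaving out combination replicate 3 left 73 (33 and 40). Without LPS replicate 1 the 50 higher genes were 33, and without limma's trend they were also 33. Under quantile normalization the split was 38 higher and 93 lower.

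The largest of these changes was in Il23a (chromosome 10, 128296139 to 128298752, minus strand). Its product p19 joins the Il12b product to form interleukin 23, a cytokine that sustains IL-17-producing T cells. It was listed at 0 in all 3 controls, at 0.519, 0.186 and 0.310 FPKM with LPS and at 0, 0.266 and 0.591 FPKM with tunicamycin. With both agents it was at 56.5, 48.6 and 43.1 FPKM. No library outside the combination group reached 1 FPKM. The combination was 37.6-fold above LPS (limma adjusted p = 9.03e-11) and 39.7-fold above tunicamycin (limma adjusted p = 2.67e-11). These comparisons, like those given below for other genes of the set, were used to choose the genes. Their p-values therefore describe the set and do not test it. With a pseudocount of 0.1 the small LPS difference passed as well (log2 2.06, limma adjusted p = 0.0324), so that Il23a left the set, while the combination stayed above LPS by log2 6.88. The level of Il12b, its partner subunit, is given above and was raised by LPS alone too.

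Gfi1, a transcriptional repressor of blood cell development (chromosome 5, 107716657 to 107726036, minus strand), was listed at 0 in all controls and was at or below 0.209 FPKM in every single-agent library. It was at 6.21, 7.39 and 7.17 FPKM with both, 7.40-fold above LPS (log2 2.89, limma adjusted p = 4.82e-08). Ext1, an enzyme that builds heparan sulfate chains (chromosome 15, 53064038 to 53346159, minus strand), was at 4.60, 3.10 and 1.40 FPKM in controls and at 28.0, 13.3 and 19.4 FPKM with both. The 6 single-agent libraries were at 1.62 to 5.50 FPKM, so the lowest combination library was more than 2-fold above the highest of the others. Slc39a10, the zinc importer ZIP10 (chromosome 1, 46807544 to 46892852, minus strand), was at 12.5, 15.4 and 12.3 FPKM in controls, at 12.7, 19 and 13.6 with LPS, and at 9.77, 12.3 and 12.0 with tunicamycin. With both it was at 38.1, 44.9 and 31.4 FPKM (log2 1.43 ± 0.18 SE against control, limma adjusted p = 6.92e-06). Hk2, the inducible hexokinase that phosphorylates glucose, was at 8.06, 7.31 and 8.54 FPKM in controls and at 19.8, 19.3 and 23 FPKM with both (log2 1.27 ± 0.19 SE, limma adjusted p = 4.62e-05). The highest single-agent library had 12.4 FPKM.

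**Figure D3:**
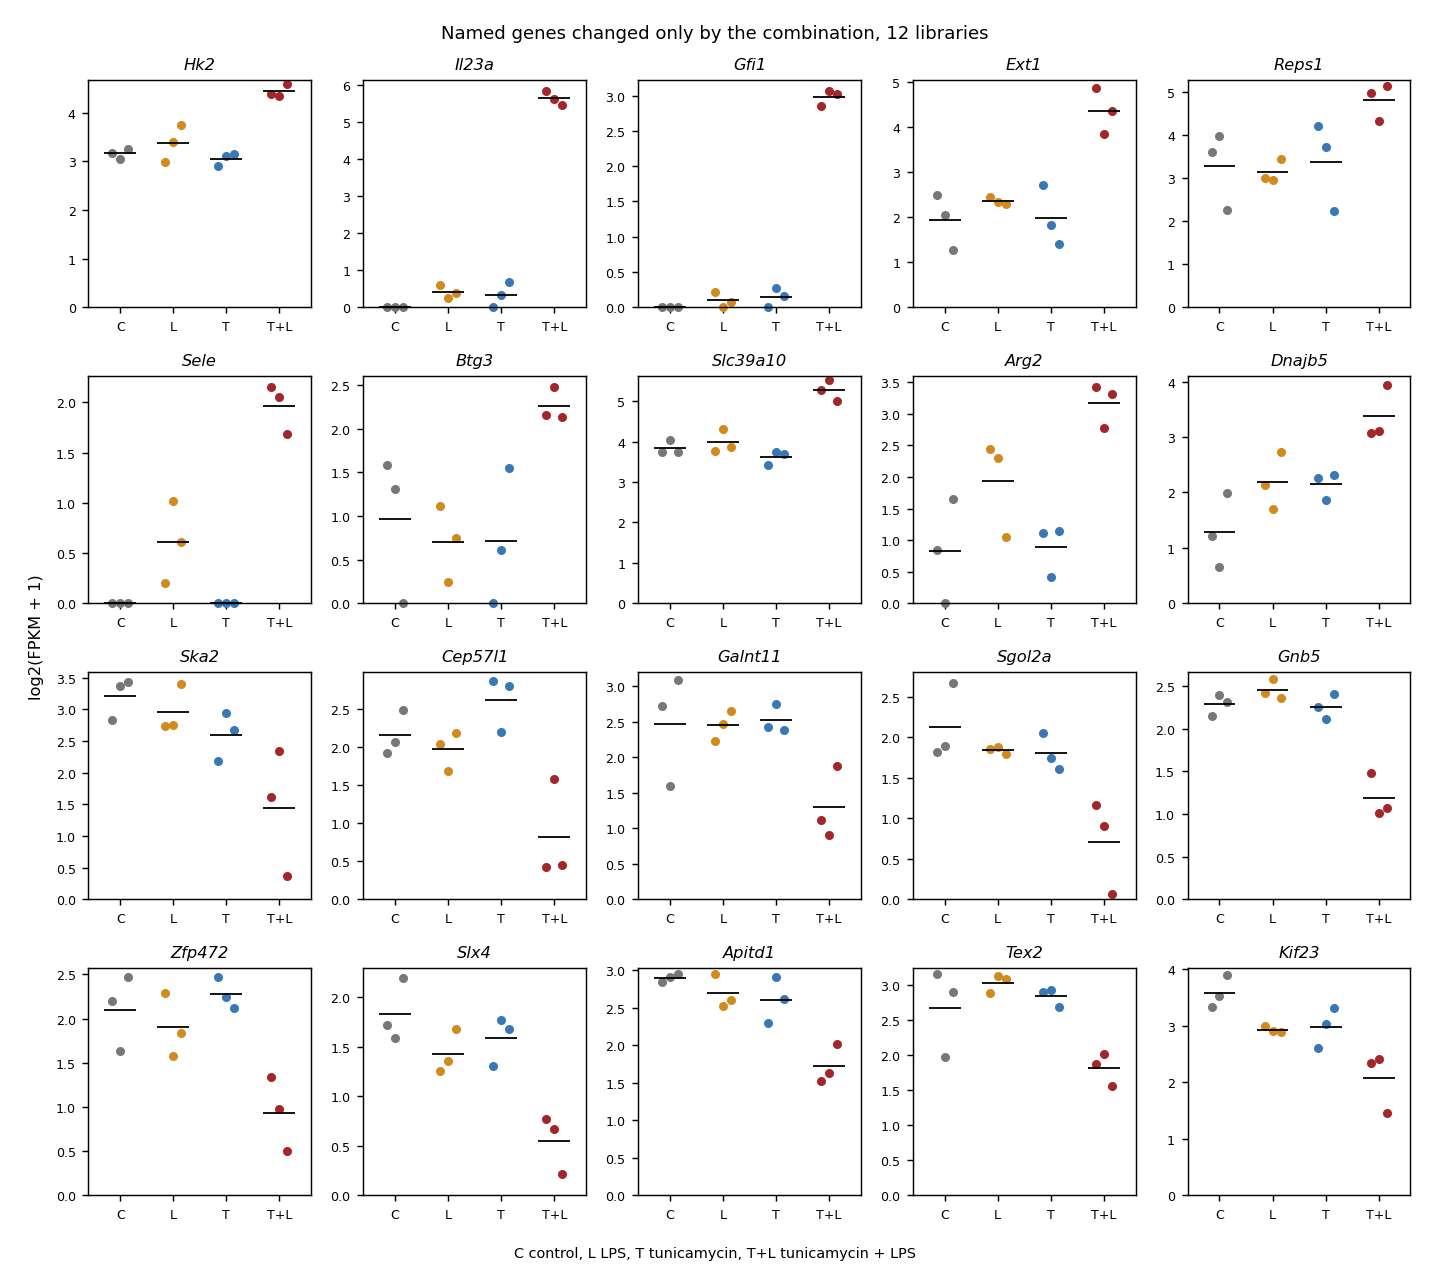
Level of 10 rises and 10 falls among genes changed only by the combination, those furthest from the nearest of the other 3 groups among genes with a standard symbol, as log2(FPKM + 1), in each library of control (C), LPS (L), tunicamycin (T) and both (T+L); bars are group means. The red combination libraries of Il23a and Gfi1 stand alone above levels near 0, while falls such as Ska2 and Cep57l1 are from low starting levels with wide spread.

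The 5 other named rises of this set were less steady. Sele, the endothelial adhesion molecule E-selectin, was listed at 0 in controls and with tunicamycin, at 0.148, 1.03 and 0.529 FPKM with LPS, and was at 3.45, 3.16 and 2.21 FPKM with both. Reps1, an endocytic adaptor gene, Btg3, an antiproliferative gene, Arg2, the mitochondrial arginase, and Dnajb5, a co-chaperone gene, were 2.45-fold to 5.07-fold above control. Sele left the set when LPS replicate 1 was left out, and Reps1, Btg3, Arg2 and Dnajb5 each left it without control replicate 3. Reps1 was also lost without tunicamycin replicate 2 or 3 or combination replicate 1 or 3, and Btg3 without tunicamycin replicate 1 or 2 or combination replicate 2. Arg2 was lost without LPS replicate 3 or combination replicate 1 or 3, and Dnajb5 without LPS replicate 2, tunicamycin replicate 2 or combination replicate 3. All 5 left the set with a pseudocount of 0.1, and Reps1, Btg3, Arg2 and Dnajb5 also with no filter on low values. Sele, Reps1 and Arg2 left it without limma's trend, Reps1 with robust limma and Dnajb5 with the replicate block. Gfi1, Ext1, Slc39a10 and Hk2 stayed in it under all 21 alternative settings, and Il23a under 20 of them. When 1 library was left out, the filter on low values stayed as set on all 12 libraries. Il23a and Gfi1 reached 1 FPKM in the combination libraries alone. Without 1 of these they would not pass a filter set anew.

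Among the 10 named falls, Kif23, a kinesin of cytokinesis, was at 9.09, 10.6 and 13.9 FPKM in controls and at 4.10, 4.30 and 1.76 FPKM with both (log2 -1.52 ± 0.26 SE). LPS alone gave 6.41 to 6.95 FPKM and tunicamycin alone 5.12 to 8.94 FPKM, and the 95% intervals of both single-agent differences lay below 0 (log2 -1.21 to -0.12 and -1.15 to -0.06), with limma adjusted p of 0.0907 and 0.0818. Ska2, a spindle and kinetochore gene, Sgol2a, a shugoshin that guards cohesion, Apitd1, a centromere protein gene, and Slx4, a scaffold of DNA repair nucleases, fell by 1.77, 1.42, 1.17 and 1.28 on the log2 scale. All 4 had mean levels under 10 FPKM in controls. Kif23, Sgol2a and Slx4 left the set without tunicamycin replicate 2 or combination replicate 3, and Apitd1 without tunicamycin replicate 2. Kif23 was also lost without LPS replicate 1 or tunicamycin replicate 3, Sgol2a without tunicamycin replicate 1 and Slx4 without LPS replicate 3. With no filter Kif23 and Sgol2a left it, and with quantile normalization Kif23 did. Gnb5, a G protein beta subunit gene (chromosome 9, 75306288 to 75345876, plus strand), was steady under either agent alone. It was at 3.42, 4.26 and 3.99 FPKM in controls, at 4.13 to 5.00 with LPS, at 3.34 to 4.30 with tunicamycin, and at 1.79, 1.02 and 1.10 with both. Cep57l1, a centrosomal protein gene, fell by 1.34 on the log2 scale, and it and Gnb5 stayed in the set under all 20 alternatives in which they were tested. Of the 20 genes named in this set, between 10 (without tunicamycin replicate 2) and 19 remained when 1 library was left out, and Ska2 was lost in 14 of 21 settings.

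Further members were chosen after their values were seen. Eef2, a translation elongation factor, had means of 317 FPKM in controls and 411 FPKM with both (log2 0.37, limma adjusted p = 0.00178), and Eif4g2 and Eif3f, initiation factor genes, rose by log2 0.56 and 0.34. Otulin, a deubiquitinase of linear ubiquitin chains, rose by log2 0.82 and Gsk3b, a glycogen synthase kinase gene, by log2 1.05. Among the falls, Tgfbr2, a TGF-beta receptor, was lower by log2 -0.77, Pdgfa by -0.78, and Mcm2 by -0.91. Ctsd, cathepsin D, was among the most abundant genes of the set, at means of 18514 FPKM in controls and 13021 FPKM with both (log2 -0.51, limma adjusted p = 0.000154).

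A gene can be in this set although the agents simply add up, so the interaction was also fitted, as the difference between the LPS effects with and without tunicamycin. The interaction, too, cannot be told apart from the unknown exposure time with tunicamycin alone. It passed in 347 genes (3.37%) over the whole table. Within the set it passed in 7 of the 50 higher genes (Il23a, Gfi1, Ext1, Sele, Slc39a10, Hk2 and Otulin) and in 3 of the 63 lower ones (Gnb5, Mitd1 and 9430038I01Rik). These 10 became 5 without LPS replicate 1, 6 without control replicate 1 and 6 without tunicamycin replicate 3, in sets formed anew each time. For Il23a, Gfi1 and Slc39a10 it passed under every alternative run, where leaving out a library did not set the filter anew.

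Promoter sequence was looked at for the 20 named genes of the set, of which 14 had entries in the RefSeq promoter table. In the 250 bases before each start both strands were searched for the C/EBP-ATF element TGATGNAAT, the CRE TGACGTCA, the AP-1 site TGANTCA, the loose kappaB form GGNNTTTCC and GAAANNGAA, which is part of the interferon element. Matches were found in only 3 genes, which is why these 3 are shown, 5′ to 3′ on the gene's strand with each match in capitals. They are from RefSeq on GRCm38.p6, at chr1:164047984-164048233 (plus strand, Sele), chr5:25222622-25222871 (plus strand, Galnt11) and chr9:61946800-61947049 (minus strand, Kif23).
Sele: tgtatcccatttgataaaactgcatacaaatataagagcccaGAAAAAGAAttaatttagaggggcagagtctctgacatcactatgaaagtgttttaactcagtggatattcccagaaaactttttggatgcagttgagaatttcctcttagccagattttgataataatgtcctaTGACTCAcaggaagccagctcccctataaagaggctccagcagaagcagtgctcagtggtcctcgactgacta
Galnt11: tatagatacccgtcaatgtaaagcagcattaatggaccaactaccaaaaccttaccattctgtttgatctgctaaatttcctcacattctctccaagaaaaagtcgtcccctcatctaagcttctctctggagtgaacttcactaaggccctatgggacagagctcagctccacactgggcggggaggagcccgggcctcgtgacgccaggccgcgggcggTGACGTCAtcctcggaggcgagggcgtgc
Kif23: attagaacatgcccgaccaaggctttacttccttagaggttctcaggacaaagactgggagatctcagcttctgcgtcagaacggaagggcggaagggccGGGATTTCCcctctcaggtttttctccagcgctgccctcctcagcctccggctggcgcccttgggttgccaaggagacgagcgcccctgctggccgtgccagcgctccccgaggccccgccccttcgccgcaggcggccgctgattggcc
The Sele window held an AP-1 match 73 to 67 bases before the start and a GAAANNGAA match 208 to 200 bases before it. The CRE of Galnt11, an O-glycosylation enzyme gene, lay 29 to 22 bases before its start, and the kappaB form of Kif23 150 to 142 bases before its own. Over all 32851 promoter windows of that length the 5 motifs were present in 0.816%, 1.55%, 6.75%, 4.93% and 7.13%, in the order listed above. Over the 10147 windows of tested genes the shares were 0.394%, 2.71%, 4.45%, 5.46% and 6.39%. These matches are descriptions of the letters. Galnt11 was at 5.56, 2.01 and 7.50 FPKM in controls and at 1.17, 0.88 and 2.66 FPKM with both, so the libraries overlapped. Its call (log2 -1.16, limma adjusted p = 0.0101) was lost without control replicate 3 (0.0638), and it left the set in 6 of 21 settings.

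Where the single agents moved a gene in opposite directions, the net state took either side. Ccl2 and Ccl7, attractants of monocytes, were raised by LPS and lowered by tunicamycin, and ended above control. Ccl2 was at 379, 604 and 455 FPKM in controls, at 1622, 2156 and 1853 with LPS, at 16.3, 18.8 and 13.6 with tunicamycin, and at 907, 853 and 890 with both (log2 0.91 ± 0.15 SE against control, limma adjusted p = 0.000117). Ccl7 ended at 1314, 1161 and 1095 FPKM from 420, 603 and 504 FPKM (log2 1.23 ± 0.13 SE). Both were above every control library and below every LPS library. Ccl3, a close relative of Ccl4, was at 138, 148 and 147 FPKM in controls and at 3628, 2038 and 2557 FPKM with both (log2 4.20), and its difference from LPS did not pass (log2 -0.35, limma adjusted p = 0.0756).

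S100a9, a calcium-binding alarmin subunit gene and neutrophil marker, ended on the tunicamycin side. It was at 25.8, 8.80 and 20.7 FPKM in controls, at 70.6, 43.9 and 46.0 with LPS, at 6.16, 2.25 and 3.67 with tunicamycin, and at 11.7, 3.73 and 4.18 with both. The control and combination libraries overlapped, and the call (log2 -1.40 ± 0.40 SE, limma adjusted p = 0.00942) was lost without control replicate 1 (0.0537) and with no filter (0.052). S100a8, the partner gene, was at 77.8, 65.4 and 57.9 FPKM in controls and at 6.56, 0.569 and 9.93 FPKM with both. Pdp1, a phosphatase that activates pyruvate dehydrogenase, returned to the control level. It was at 10.0, 13.5 and 12.6 FPKM in controls, at 1.86 to 2.04 with LPS, at 36.8 to 42.9 with tunicamycin, and at 10.5, 11.4 and 10.4 with both. Its net difference was log2 -0.15 with a 95% interval of -0.48 to 0.19 (limma adjusted p = 0.494). Plaur, the urokinase receptor, ended at 122, 114 and 140 FPKM from 94.1, 103 and 99.8 FPKM (log2 0.33 ± 0.11 SE, limma adjusted p = 0.0288). The Plaur call was lost without control replicate 1 (0.0918), control replicate 3 (0.0618) or combination replicate 3 (0.126), with quantile normalization (0.106), and without limma's trend (0.0726). Fam83f fell by 0.90 on the log2 scale (limma adjusted p = 0.0152), a call lost without combination replicate 3 (0.0783) and with a pseudocount of 0.1 (0.072).

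**Figure D4:**
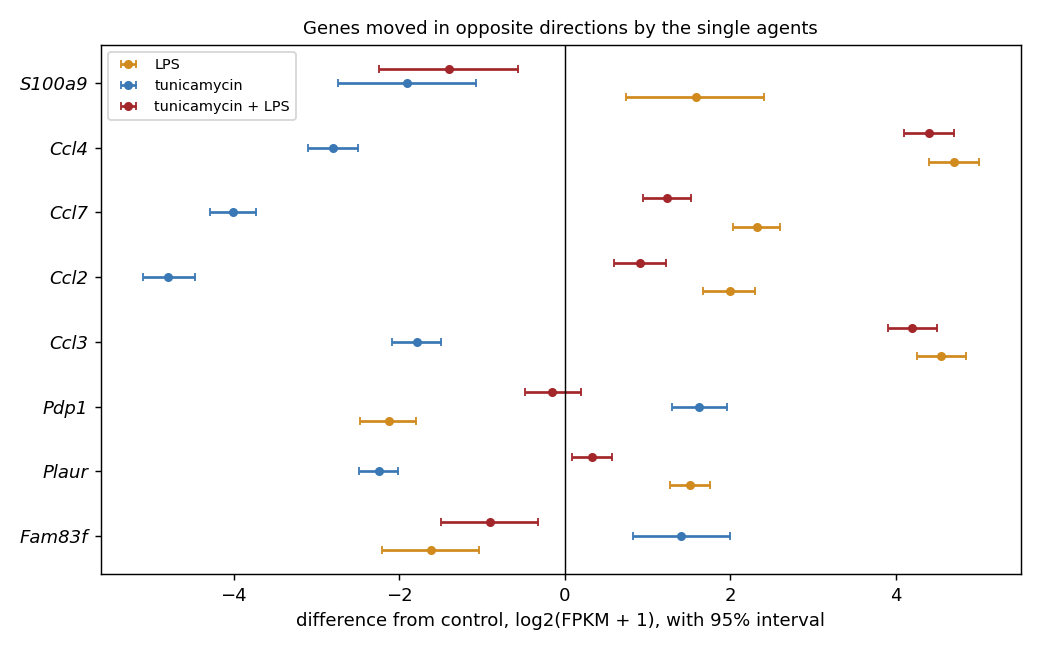
Difference from control of the 8 genes with the largest opposed single-agent effects, in log2(FPKM + 1) with 95% intervals from limma, for LPS (orange), tunicamycin (blue) and both (red). For the 4 Ccl genes the red points lie right of 0 and left of the orange ones; for Pdp1 the red interval spans 0.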

How the data were processed

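RNA sequencing values were deposited by the authors as FPKM, 1 value per gene symbol and library, for 12 libraries in 4 groups of 3. The submitters' processing notes list Cufflinks 2.2.1, SAMtools 0.1.19, TopHat2 2.0.13 and Bowtie2 2.2.3, and the build mm10. The sources used here name neither the annotation nor the between-library scaling of the authors. Read depth is unknown, so precision is given as the spread between replicates, and no interval for counting error is given. Summed FPKM was 603467 to 638743 in control and 601943 to 666042 in combination libraries. FPKM cannot show a change in total RNA per cell. No libraries were identical.

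A gene needed at least 1 FPKM in at least 3 libraries. The limma package 3.58.1 under R 4.3.3 fitted 4 group means to log2(FPKM + 1) of all 12 libraries (lmFit, then eBayes with trend). P-values were adjusted by Benjamini-Hochberg over 10311 genes. Only the comparison with control was tried on simulated data, with independent noise. That trial did not cover the rule for genes changed only by the combination or the interaction. The genes named are the 10 largest rises and falls whose groups do not overlap, of the genes changed only by the combination the 10 rises and 10 falls whose smallest difference from the other 3 groups is largest (in both cases leaving out gene models with no standard symbol, such as Rik and Gm names), up to 4 passing members of each of 28 lists with the largest change, the 8 largest opposed changes, and a fixed set of cytokine, stress and receptor genes. Other list members are named beside their list's count, chosen after their values were seen, and were not followed one by one under the alternatives. A few genes that the rule names are not reported here. The members and lists were chosen with earlier results of these data known.

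Coordinates are from GENCODE M21 (GRCm38, that is mm10), in which 23310 of the 24346 symbols were found. For 98 of 117 RefSeq promoters the bases just after the start were found in a transcript of that annotation. Alternatives were quantile normalization, scaling by median of ratios, a pseudocount of 0.1, a minimum of 5 FPKM or none, the block, limma without trend or robust, a minimum log2 of 1, the 6 libraries alone, and leaving out each library. When a library was left out, the filter stayed as set on all 12 libraries. Counts of list members under these settings were added after the data were seen. Figures were drawn with matplotlib 3.10.9 in Python 3.11.15.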

Additional observations from a re-analysis of the deposited data

Results flagged for a closer look

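For 7 named genes changed only by the combination, the LPS effect with tunicamycin differed from that without it by limma's interaction term, adjusted over all genes. The difference for Il23a was log2 4.90 (adjusted p = 1.35e-07), between an LPS effect of 0.41 without tunicamycin and 5.31 with it. For Gfi1 it was log2 2.74 (adjusted p = 4.14e-05) and for Slc39a10, the zinc importer gene, log2 1.51 (adjusted p = 0.00168). These 3 passed under all 21 alternatives, with limma adjusted p of at most 0.0025, 0.0237 and 0.0138. Among the alternatives, the minimum log2 of 1 left the interaction fit as it was, and leaving out a library did not set the filter anew. The 7 genes were chosen from these same libraries for a combination level far from the other groups, so their differences are selected to be large.

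Hk2, the inducible hexokinase, differed by log2 1.16 in limma (adjusted p = 0.0222), which was lost without LPS replicate 1 (0.055), tunicamycin replicate 1 (0.0505) or combination replicate 3 (0.0573), and with no filter on low values (0.0503). Gnb5, the G protein subunit gene, differed by log2 -1.24 (adjusted p = 0.0265). Its call was lost without control replicate 1 (0.0705), LPS replicate 1 (0.0554), LPS replicate 2 (0.0752), tunicamycin replicate 3 (0.0855), combination replicate 2 (0.0549) or combination replicate 3 (0.0533).

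Ext1, the heparan sulfate enzyme gene, differed by log2 1.95 in limma (adjusted p = 0.0357) and kept the call only without control replicate 3, tunicamycin replicate 1 or combination replicate 2 among the 12 libraries left out. For the other libraries adjusted p was 0.0659 (without LPS replicate 1) to 0.0998 (without tunicamycin replicate 3). The call was also lost with no filter (0.147), a pseudocount of 0.1 (0.0817) and limma without trend (0.076). Sele, the E-selectin gene, differed by log2 1.35 (adjusted p = 0.0423) and kept the call only without LPS replicate 2 or combination replicate 3. For the other libraries adjusted p was 0.0715 (without control replicate 3) to 0.114 (without LPS replicate 1). The call was also lost with a pseudocount of 0.1 (0.3) and with the replicate block (0.0551).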

How the results depend on the processing

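Of 137 named genes under 22 alternatives, 2937 of 3001 differences from control kept their direction and side of the threshold, 63 in 21 genes no longer passed, 1 newly passed (Csf1r) and 0 reversed. The 4211 changed genes were 1593, and the 113 changed only by the combination 43, with a minimum log2 of 1. They ranged from 3721 to 4200 and from 67 to 128 when 1 library was left out. Replicate numbers did not pair the control and combination libraries (r of their deviations from the group means -0.027 to 0.03 over all 9 pairs). The replicate block gave 4199 and 110 and lost 1 named gene of the set, Dnajb5, and the interaction call of Sele (adjusted p = 0.0551 in limma), and no call of a named gene against control. The set split into 38 higher and 78 lower with a pseudocount of 0.1, 33 and 67 without the trend, and 38 and 76 without combination replicate 1. Quantile normalization moved the median gene to log2 -0.053 and the share of rises among changed genes from 50.6% to 44.1%. With 3 libraries a group and unknown depth, small changes of low genes may have gone undetected.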
